A study of Mus musculus with 288 samples.

Results

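The genes described here are 7 MHC class II genes of the mouse: Cd74, H2-Aa, H2-Ab1, H2-Eb1, H2-DMa, H2-DMb1 and Ciita, of 24781 genes counted. They were taken by name and not by a rule on their values, but with earlier results of these data known. They were read in single lung cells grouped by the surfactant gene Sftpc and the secretoglobin gene Scgb3a1. The cells came from 4-month-old C57BL/6 mice that carried Scgb1a1-CreER, an inducible Cre recombinase driven by the promoter of the club cell gene Scgb1a1, together with the Cre reporter Rosa26-mTmG. The sort kept Epcam+ epithelial cells without CD45 (leukocytes) or CD31 (endothelium), low in CD24 and titled Scgb1a1+. That title does not state that each well held Scgb1a1 transcripts. All cells share this genotype, strain and age, and the negative controls were wells of medium. The sorted wells numbered 286 and the controls 2. No label ties a cell to an animal, so the cells are 1 sample, and no test, p-value or standard error is given. Every interval below is at 95% and covers counting error only.

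A well was kept if its total was above 2340 counts, 10 times the 234 counts of the higher control, which left 227 cells. Of these, 63 wells (27.8%) had at least 1% of their counts in Sftpc and are called Sftpc wells, 74 wells (32.6%) had at least 1% in Scgb3a1 and are called Scgb3a1 wells, and 90 (39.6%) are the other wells. In no well did both genes reach 1%. The median total was 3529 counts in Sftpc wells, 6940.5 in Scgb3a1 wells and 5406 in other wells, so the Sftpc wells were the shallowest class. The name of a class was read against marker lists. The summed alveolar type 2 (AT2) list had 222726, 7027 and 13557 CPM (counts scaled by the summed total of a class) in Sftpc, Scgb3a1 and other wells, and the club cell list 59885, 308788 and 383463 CPM, although Sftpc is itself one of the AT2 genes.

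MHC class II molecules are pairs of an alpha and a beta chain that carry peptides made in endosomes to the cell surface, where CD4 T cells read them. The invariant chain, encoded by Cd74, occupies the groove of new class II pairs, and the H2-DM pair later exchanges its remnant for peptide. Ciita is the transactivator that acts on class II promoters together with the factors bound to their X and Y boxes. Class II is best known from dendritic cells, macrophages and B cells, and AT2 cells of the lung are known to carry it as well.

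Of the 7 genes, 5 lie in the class II region of chromosome 17 (GENCODE M21, GRCm38): H2-DMa at chr17:34119541-34139101, H2-DMb1 at chr17:34153072-34160230, H2-Ab1 at chr17:34257689-34269419 and H2-Eb1 at chr17:34305867-34316674, all on the plus strand, and H2-Aa at chr17:34282744-34287823 on the minus strand. Ciita lies at chr16:10480059-10528418 on the plus strand. The start regions of the class II genes are printed here because these genes were detected in the same wells. RefSeq windows of 300 bases (GRCm38.p6, 250 before the start to 50 after it) were found for 4 of the 7 members, H2-Aa, H2-Eb1, H2-DMa and H2-DMb1. The capitals mark GCAAC, letters of the X box, and TGATTGG, the Y box with its CCAAT core read on the opposite strand. The letters of both motifs were chosen after these windows had been seen. The sequences run 5′ to 3′ on the strand of the gene.
H2-Aa, chr17:34287774-34288073, minus strand: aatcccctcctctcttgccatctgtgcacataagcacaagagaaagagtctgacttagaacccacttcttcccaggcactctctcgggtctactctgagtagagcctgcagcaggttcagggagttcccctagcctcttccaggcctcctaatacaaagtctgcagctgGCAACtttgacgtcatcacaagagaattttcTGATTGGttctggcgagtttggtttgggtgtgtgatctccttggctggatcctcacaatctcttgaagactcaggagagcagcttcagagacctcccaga
H2-Eb1, chr17:34305617-34305916, plus strand: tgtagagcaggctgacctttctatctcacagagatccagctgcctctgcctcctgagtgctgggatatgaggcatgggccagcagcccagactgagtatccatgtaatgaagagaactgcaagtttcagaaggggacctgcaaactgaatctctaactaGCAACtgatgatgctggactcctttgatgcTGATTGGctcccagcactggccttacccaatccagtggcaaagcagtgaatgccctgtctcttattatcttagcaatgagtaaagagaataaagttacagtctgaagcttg
H2-DMb1, chr17:34152941-34153240, plus strand: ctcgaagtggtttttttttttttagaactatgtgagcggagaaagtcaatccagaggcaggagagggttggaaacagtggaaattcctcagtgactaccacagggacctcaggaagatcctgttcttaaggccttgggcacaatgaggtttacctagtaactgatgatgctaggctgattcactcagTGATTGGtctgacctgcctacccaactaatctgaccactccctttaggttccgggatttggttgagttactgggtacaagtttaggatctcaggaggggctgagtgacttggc

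The pair, GCAAC followed by TGATTGG after 10 to 40 bases, stood on the gene strand of H2-Aa with a gap of 26 bases and of H2-Eb1 with a gap of 25 bases. Among 32851 promoter windows it was present on the gene strand in 50, or 0.152%, and on either strand in 95, or 0.289%. Singly, TGATTGG was on the gene strand of 4.01% and GCAAC on that of 19.3% of the windows. The H2-DMb1 window held TGATTGG without an exact GCAAC, and neither motif stood on the gene strand of the H2-DMa windows. The window of H2-DMb2, a class II gene without a count in the 227 cells, also held TGATTGG without GCAAC. Only exact letters were searched, so an X box with other letters would be missed. The same pair stood before 3 class II genes that had no count in any of the 227 cells, shown here from motif to motif so that they can be set beside H2-Aa and H2-Eb1.
H2-Aa: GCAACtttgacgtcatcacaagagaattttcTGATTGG
H2-Eb1: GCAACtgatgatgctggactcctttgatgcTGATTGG
H2-Eb2: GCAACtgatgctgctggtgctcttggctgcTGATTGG
H2-Oa: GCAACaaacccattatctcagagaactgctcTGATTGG
H2-Ob: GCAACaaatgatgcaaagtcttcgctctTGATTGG

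The gap was 25 bases in H2-Eb2, 26 in H2-Oa and 23 in H2-Ob. A match of these letters is a description of the sequence and does not show that a factor was bound, and the detected and undetected genes were not separated by the presence of the pair.

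Class II transcripts were concentrated in the Sftpc wells. The 6 class II genes other than Ciita summed to 607 counts there, which is 2522 CPM (2325 to 2731), against 15 counts and 29.2 CPM (16.4 to 48.2) in Scgb3a1 wells and 20 counts and 39.6 CPM (24.2 to 61.1) in other wells. At least 1 of these counts was found in 60 of 63 Sftpc wells (95.2%), 9 of 74 Scgb3a1 wells and 15 of 90 other wells. Neither control well held a class II count, although their 41 and 234 counts in all would show only an abundant gene. The summed level of Sftpc wells was 63.7 times that of other wells (40.9 to 105) and 86.3 times that of Scgb3a1 wells (51.9 to 155). Between Scgb3a1 and other wells the ratio of the sum was 0.738, with an interval of 0.352 to 1.52 that spans 1. This comparison had no stable direction: on the log2 scale it was -0.44, but -1.49 (-3.44 to -0.0040) with a class threshold of 5% and 1.95 (0.15 to 3.80) in the last 96 columns alone.

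Cd74, the invariant chain and peptide-loading chaperone, was present in nearly every Sftpc well. The gene lies at chr18:60803848-60812652 on the plus strand. It had 0 to 20 counts per well there with a median of 5, against 0 to 4 counts in Scgb3a1 and in other wells, both with a median of 0. The ranges overlap, since many Sftpc wells also had 4 counts or fewer. Cd74 was detected in 59 of 63 Sftpc wells (93.7%, 84.5 to 98.2%), 7 of 74 Scgb3a1 wells (9.46%) and 14 of 90 other wells (15.6%). After each well was thinned to 3151 counts, which leaves out 23 shallower wells and keeps 44 Sftpc, 74 Scgb3a1 and 86 other wells, the shares were 90.9% of Sftpc, 5.41% of Scgb3a1 and 11.6% of other wells. The pooled level was 1579 CPM (1424 to 1746) in Sftpc wells, 19.5 CPM (9.34 to 35.8) in Scgb3a1 wells and 37.6 CPM (22.6 to 58.7) in other wells. That is a ratio of 42.0 (26.5 to 70.5) to other wells and of 81.0 (43.6 to 170) to Scgb3a1 wells.

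**Figure D1:**
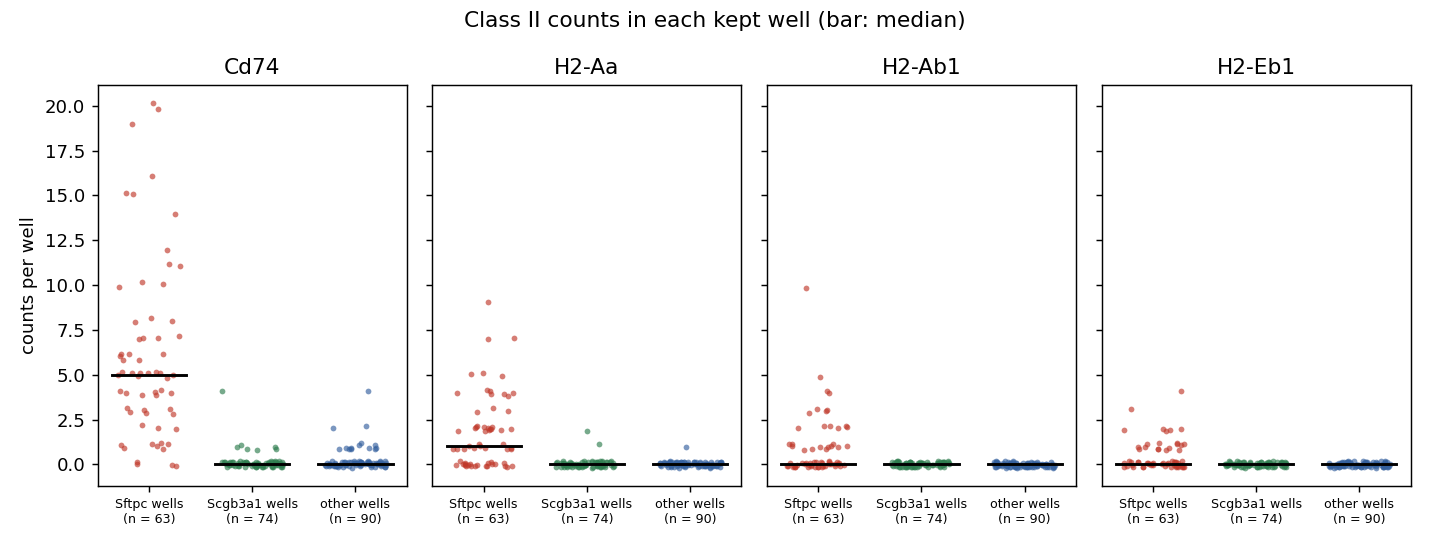
Deposited counts of Cd74, H2-Aa, H2-Ab1 and H2-Eb1 in each kept well (points, shifted slightly sideways and up or down for visibility), for 63 Sftpc, 74 Scgb3a1 and 90 other wells, with a bar at the median. Cd74 has a median of 5 counts in Sftpc wells and 0 in both other classes, and H2-Ab1 and H2-Eb1 have no count outside Sftpc wells.

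The 3 genes of alpha and beta chains followed the same division. H2-Aa, the alpha chain of the I-A molecule, had 113 counts in 41 Sftpc wells (65.1%; 63.6% thinned), with 0 to 9 counts per well and a median of 1. It had 3 counts in 2 Scgb3a1 wells and 1 count in 1 other well. Its pooled level was 470 CPM (387 to 564) in Sftpc wells, 5.85 CPM in Scgb3a1 wells and 1.98 CPM in other wells. The ratio to other wells, 237, rests on that 1 count and has an interval of 41.7 to 9452, and the ratio to Scgb3a1 wells was 80.3 (26.8 to 395).

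H2-Ab1, the beta chain that pairs with H2-Aa, was counted 59 times in 26 Sftpc wells (41.3%; 29.5% thinned), with 0 to 10 counts per well, and never in the 164 wells of the other classes. H2-Eb1, the beta chain of the I-E molecule, was counted 31 times in 21 Sftpc wells (33.3%; 25.0% thinned), with 0 to 4 counts per well, and likewise never elsewhere. Read as allowing up to 3 wells, a count of 0 leaves a share of up to 4.05% of 74 Scgb3a1 wells and 3.33% of 90 other wells that could hold a count at this depth, which does not limit how many express the gene. Set against 3 counts in place of 0 per class, H2-Ab1 was at least 41.3-fold higher in Sftpc than in other wells and at least 41.9-fold higher than in Scgb3a1 wells. The bounds for H2-Eb1 were at least 21.7-fold and at least 22.0-fold.

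The chains of the peptide exchange factor were sparser. H2-DMb1 had 15 counts in 14 Sftpc wells (22.2%), 2 counts in 2 Scgb3a1 wells and none in other wells, and H2-DMa had 9 counts in 8 Sftpc wells (12.7%) and none in the rest. Ciita, the transactivator, had 2 counts in 2 Sftpc wells and 0 elsewhere, so no ratio is given for it. The remaining class II rows of the table, H2-Eb2, H2-DMb2, H2-Oa, H2-Ob and H2-Ea-ps, had no count in any kept cell. H2-Ea-ps is the I-E alpha locus, which is annotated as a polymorphic pseudogene and, as background, is known not to yield an alpha chain in C57BL/6 mice. H2-DMb1 and H2-DMb2 are near-identical neighbours, and how the counting shared reads between them is not given in the sources used here.

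Of the 7 members, 4 had at least 20 counts in Sftpc and other wells together, and all 4 (Cd74, H2-Aa, H2-Ab1 and H2-Eb1) were at least 2-fold higher in Sftpc wells. Of the 3854 genes measured in that comparison 17.4% were at least 2-fold higher and 9.68% at least 2-fold lower. The median log2 ratio was 5.38 over the 4 members and 0.18 over all measured genes. The 4 members reached 20 counts only with the Sftpc wells, so a difference had to appear among them, and H2-DMa, H2-DMb1 and Ciita fell short of that minimum. Against Scgb3a1 wells the same 4 were at least 2-fold higher, where 19.7% of 3834 measured genes were. Between Scgb3a1 and other wells only Cd74 was measured, and its ratio of 0.518 (0.215 to 1.17) was not past 2-fold, beside 8.13% of 4536 genes at least 2-fold higher and 9.24% at least 2-fold lower. Scaling the totals with TMM factors lowered the log2 ratio of every gene in Sftpc over other wells by 0.32, and the split of calls moved with it: 64.3% of all called genes were higher on plain totals and 44.2% with TMM. Cd74 had a log2 ratio of 5.07 with TMM.

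**Figure D2:**
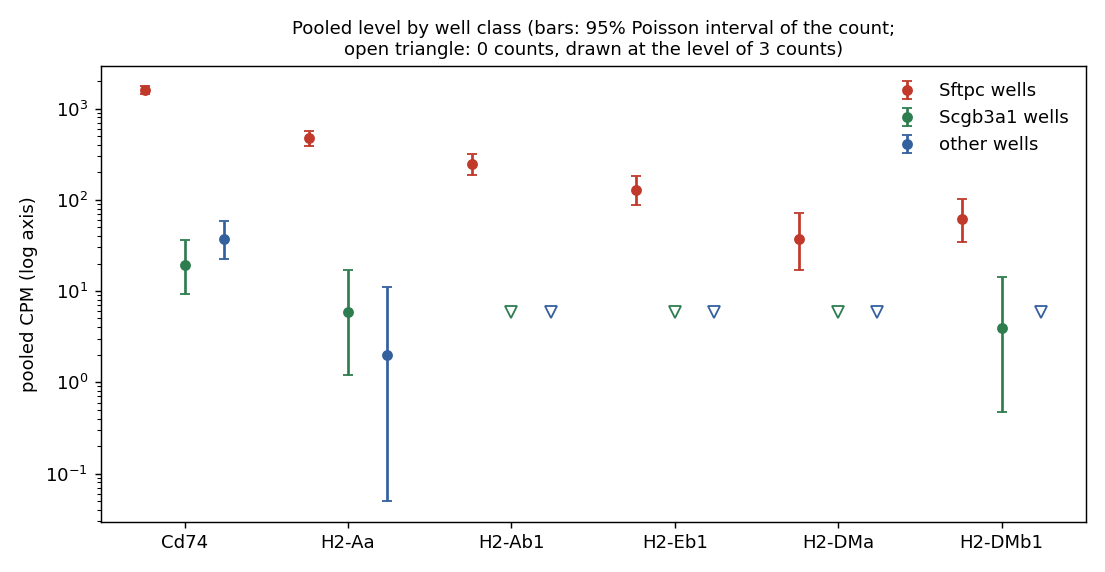
Pooled level of 6 class II genes in CPM (log axis) in Sftpc, Scgb3a1 and other wells, with the 95% Poisson interval of the count as bars and an open triangle at the level of 3 counts where a class had 0. The Sftpc wells lie at 1579 CPM for Cd74 and 470 CPM for H2-Aa, above the intervals of both other classes.

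The chains were then compared within single wells. An alpha and a beta chain, H2-Aa with H2-Ab1 or H2-Eb1, were found together in 30 of 63 Sftpc wells (47.6%, 34.9 to 60.6%). The product of the single shares gives 23.4 wells, or 37.2%. H2-Eb1 belongs to I-E, so only H2-Aa with H2-Ab1 is a matched pair. That pair was found in 23 wells (36.5%, 24.7 to 49.6%). Thinned to equal depth, 17 of 44 wells (38.6%) held both kinds of chain, against a product of 28.9%. No Scgb3a1 well and no other well held a beta chain.

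Within Sftpc wells H2-Aa and H2-Ab1 were found together in 23 wells, where the product of their shares gives 16.9. H2-Aa and H2-Eb1 shared 16 wells (product 13.7) and H2-Ab1 and H2-Eb1 shared 11 (product 8.67). Each pair was thus found together somewhat more often than the product. The interval of the share held the product's value in each: 24.7 to 49.6% around the first pair, beside a product of 26.9%. The product comes from the same wells as the share, so this interval does not measure a departure from it. Whether the chains were detected independently of each other was not tested. Cd74 and H2-Aa shared 40 wells beside a product of 38.4, and all 26 wells with H2-Ab1 also held Cd74. All 4 genes were counted in 9 wells, beside a product of 5.28. The interval of that share, 6.75 to 25.4%, held the product's 8.38%.

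The wells can also be read by how many of Cd74 and the 3 chains they held. None of the 4 was counted in 3 wells, 1 in 13, 2 in 16, 3 in 22 and 4 in 9, with median totals of 3002, 3669, 3652.5, 3429 and 2935 counts. The wells with all 4 genes were thus not the deepest. Cd74 without any chain made up 13 wells, and a chain without Cd74 was found in 1 well. The most common combination was Cd74 with H2-Aa and H2-Ab1, in 14 wells. At least 1 chain of H2-DM was counted in 18 Sftpc wells, and all 18 also held at least 1 of the 3 chains, beside a product of 13.4 wells. Both H2-DM chains were counted in 4 wells, beside a product of 1.78. The interval of each share held the product's value: 17.9 to 41.3% beside 21.3%, and 1.76 to 15.5% beside 2.82%. These products also come from the same wells, so the intervals do not measure a departure from them. Thinned, both H2-DM chains were in 4 of 44 wells, 2.53 to 21.7% beside 2.48%.

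**Figure D3:**
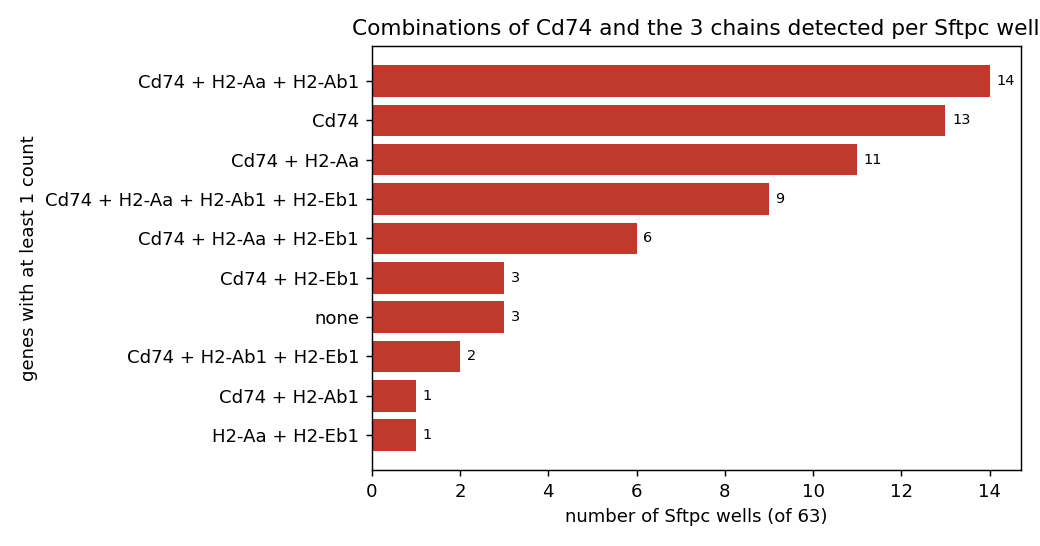
Number of the 63 Sftpc wells (x axis) that held each combination of Cd74, H2-Aa, H2-Ab1 and H2-Eb1 with at least 1 count (rows, by size). Cd74 with H2-Aa and H2-Ab1 leads with 14 wells, Cd74 alone follows with 13, and only 1 row with a chain lacks Cd74.

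Class II levels were uneven among the Sftpc wells. Summed over the 6 genes, a well had 0 to 11194 CPM, with a median of 2157 and an interquartile range of 1123 to 3524. For Cd74 alone the range was 0 to 5597 CPM, with a median of 1241. At equal depth the variance of Cd74 counts across 44 wells was 4.41 times the mean, above that of 42 of the 45 genes of like mean, whose median was 1.28. For H2-Aa the value was 2.06, above 153 of 173 such genes with a median of 1.22. Without the top well of each gene, Cd74 was at 3.65 and H2-Aa at 1.61. The value of H2-Ab1, 3.28, rested on 1 well, and was 1.28 without it. H2-Eb1, at 1.14, was close to the median of 1.04 of its like genes.

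The 3 wells with the most class II counts had 31, 30 and 30. In the first of them Cd74 had 20 counts, H2-Ab1 10, H2-Eb1 1 and H2-Aa 0, so a high count of a beta chain came without the alpha chain. The 4 Sftpc wells without Cd74 had totals of 3259, 3002, 3707 and 2426 counts and 20.7, 18.0, 17.9 and 16.9% of them in Sftpc, which is far from the 1% limit. The well of 3707 counts held 2 counts of H2-Aa, 1 of H2-Eb1 and 1 of H2-DMb1, and the other 3 held none. Within the class, the 31 wells with the higher share of Sftpc had 2420 CPM of summed class II (2145 to 2722), against 2615 CPM (2340 to 2914) in the 32 wells with the lower share. The intervals overlap.

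**Figure D4:**
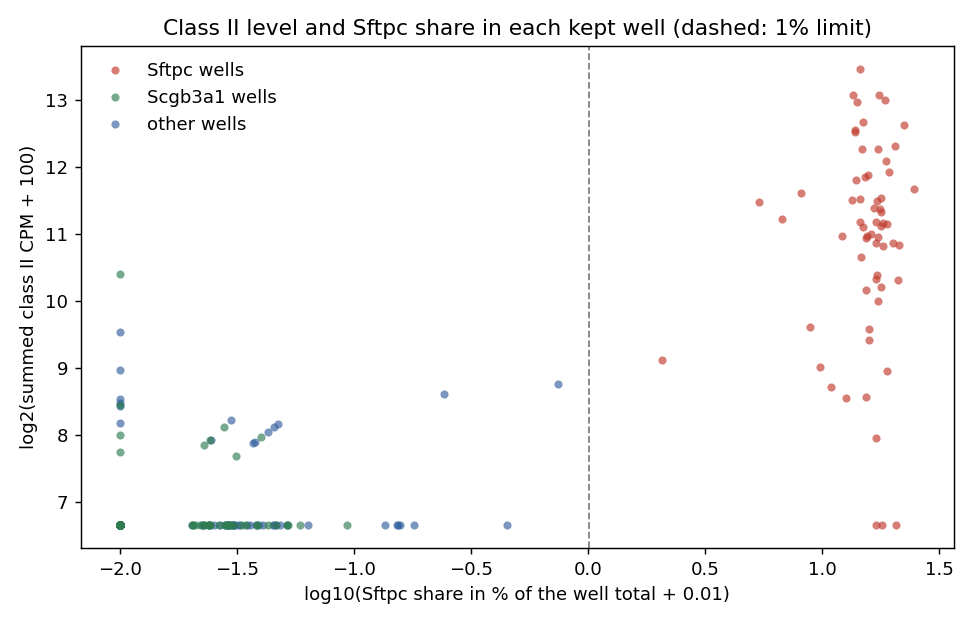
Summed level of 6 class II genes, as log2(CPM + 100), against the Sftpc share of the well, as log10(percent + 0.01), in each of 227 kept wells, with the 1% limit dashed. Most Sftpc wells lie above the other classes, but 3 of them lie at 0 class II counts at high Sftpc shares, and within the group the class II level spreads from 0 to 11194 CPM.

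Wells near the limits were few. The 3 wells just inside the Sftpc limit had 2.07, 5.36 and 6.70% of their counts in Sftpc and 4, 19 and 15 class II counts. The 3 just outside had 0.734, 0.442 and 0.233% and 1, 0 and 1 class II counts. At the Scgb3a1 limit the 3 wells just inside (1.01, 1.02 and 1.19%) and the 3 just outside (0.876, 0.200 and 0.154%) had no class II count.

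Sftpc wells differed by their count of Scgb1a1, the club cell secretoglobin whose promoter drives the Cre recombinase. The 24 Sftpc wells with at most 20 Scgb1a1 counts, the highest number in a control well, had 3935 CPM of summed class II (3509 to 4398), against 1835 CPM (1632 to 2056) in the 39 wells above it. H2-Aa was counted in 87.5% of the 24 wells and 51.3% of the 39, H2-Ab1 in 66.7% of the 24 and 25.6% of the 39, and H2-Eb1 in 45.8% of the 24 and 25.6% of the 39. Cd74 was counted in 91.7% of the 24 and 94.9% of the 39. Cd74 had similar shares and differed in level, with 2310 CPM in the 24 wells and 1223 CPM in the 39. The median total was 3149.5 counts in the 24 wells and 3669 in the 39. The 39 include 10 wells with at least 200 Scgb1a1 counts, which had a median total of 5799.5 counts. Their summed class II level was 1068 CPM (817 to 1372), against 2974 CPM in the 53 Sftpc wells under 200 counts. Part of the gap between the 24 and the 39 wells thus comes from these 10.

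The columns of the table fall into 3 successive sets of 96, which the labels do not call plates or batches. Sftpc wells were spread over them as 6, 17 and 40 wells, and all 24 wells with at most 20 Scgb1a1 counts were in the third set. Both controls were in the first set, so the third has no control of its own for that limit. The summed class II level of Sftpc wells was 1728 CPM in the first set, 1867 in the second and 3030 in the third. Inside the third set the 24 wells had 3935 CPM, with a median per well of 3315, against 1857 CPM (1531 to 2233), with a median of 1611, in the 16 wells above 20 counts. The per-well values overlap, at 0 to 11194 CPM in the 24 wells and 273 to 8097 CPM in the 16. Sftpc wells above 20 counts thus had 1728, 1867 and 1857 CPM in the 3 sets. What sets the low Scgb1a1 counts of these 24 wells was not tested.

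**Figure D5:**
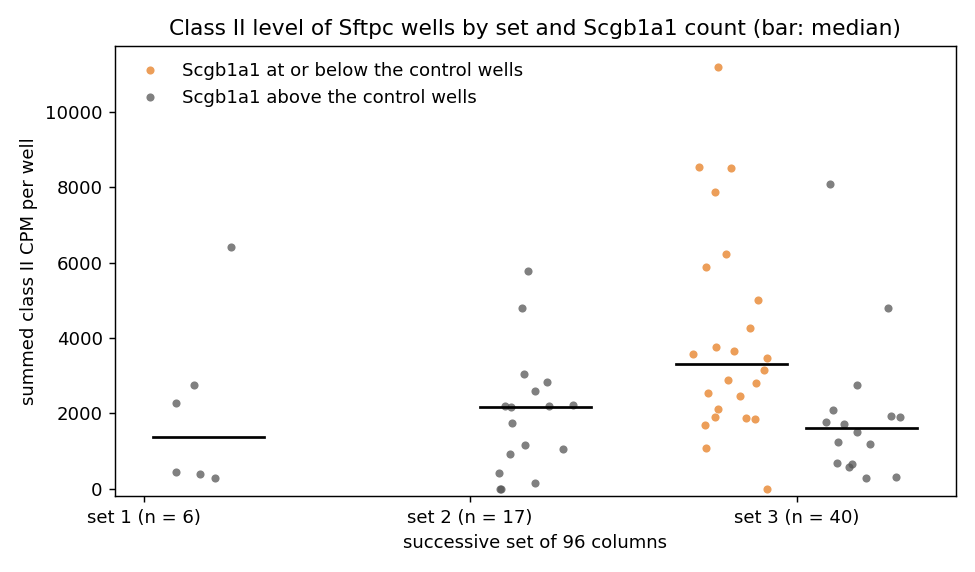
Summed class II CPM of each Sftpc well (points; bars mark medians) in the 3 successive sets of 96 columns, 6, 17 and 40 wells, with wells of at most 20 Scgb1a1 counts in orange and wells above that in grey. The orange wells, all in set 3, have a median of 3315 CPM, and the grey wells of the same set 1611 CPM.

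Outside the Sftpc wells class II counts were few, with Cd74 making up 10 of 15 in Scgb3a1 wells and 19 of 20 in other wells. Cd74 was counted in 21 of 164 wells (12.8%, 8.10 to 18.9%) with 29 counts, and the 3 chains had 4 counts in all, each of H2-Aa. H2-DMb1 added 2 counts. Among Scgb3a1 wells the share with Cd74 was 9.38% (1.98 to 25.0%) with at least 1 Sftpc count and 9.52% (2.66 to 22.6%) without. Among other wells it was 17.8% (8.00 to 32.1%) with and 13.3% (5.05 to 26.8%) without. These intervals are too wide to tell whether the share follows Sftpc counts. For each 100 Sftpc counts there were 1.04 Cd74 counts in Sftpc wells (0.935 to 1.15), 20.8 in Scgb3a1 wells (9.40 to 41.7) and 13.4 in other wells (7.82 to 21.7). The classes were cut on Sftpc itself, so the difference between these ratios is in part set by that rule. For each 100 Cd74 counts there were 29.7 H2-Aa counts in Sftpc wells, 30.0 in Scgb3a1 wells, from 3 counts, and 5.26 in other wells, from 1 count. By set, Cd74 was counted in 9.21% of 76 wells in the first, 10.9% of 64 in the second and 29.2% of 24 in the third. None of the 8 wells with Foxj1, a regulator of ciliated cells, held Cd74. That is 0 of 3 Scgb3a1 wells (0 to 70.8%) and 0 of 5 other wells (0 to 52.2%). Both intervals hold the 12.8% of all 164 wells, so these wells are too few to tell a lower share.

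The highest of these wells was an Scgb3a1 well of 4828 counts in the third set with 4 counts of Cd74, 2 of H2-Aa and no Sftpc. Without it the summed log2 ratio of Scgb3a1 to other wells was -1.16, against -0.44 with it. An other well of 6255 counts held 4 Cd74 counts and no chain or Sftpc. The remaining 19 wells with Cd74 had 1 or 2 counts each, near the limit of detection.

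Genes of professional antigen-presenting cells were almost absent from the Sftpc wells. Of 21 macrophage and dendritic cell genes, 19 had no count there, among them Ptprc, Itgax, Itgam, Adgre1, Marco, Cd52 and C1qa, and the rest were Csf1r with 2 counts and Cd68 with 1. The list summed to 12.5, 3.90 and 13.9 CPM in Sftpc, Scgb3a1 and other wells, with at most 1 count in any well. Of B cell genes, Cd79b was counted 6 times in Sftpc wells, 0 times in Scgb3a1 wells and 6 times in other wells, and Cd79a, Ms4a1 and Pax5 were at 0. In the 60 Sftpc wells without a count of the macrophage and dendritic cell list the summed class II level was 2571 CPM and Cd74 was at 1600 CPM.

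The lysosomal enzymes that trim invariant chain and antigen were uneven. Of 18 endosomal processing genes 15 were measured in Sftpc and other wells. In Sftpc wells 5 were at least 2-fold higher and none lower, beside 17.4% and 9.68% of all measured genes. The median log2 ratio of the list was 0.03, beside 0.18 over all genes. Ctsc, which encodes the dipeptidyl peptidase cathepsin C, had 785 CPM in Sftpc wells and 139 in other wells, a ratio of 5.67 (4.29 to 7.57). Ctsh, the most abundant gene of the list in Sftpc wells, had 873 CPM in Sftpc wells and 293 in other wells, a ratio of 2.98 (2.40 to 3.70). It encodes an aminopeptidase that, as background, also processes surfactant proteins in AT2 cells. The other 3 were Lgmn, an asparaginyl endopeptidase, at 5.60 (2.08 to 17.5, from 16 and 6 counts), the tetraspanin Cd81 at 3.04 (1.85 to 5.06) and the thiol reductase Ifi30 at 2.40 (1.28 to 4.53), which dropped below 2-fold with TMM scaling. Ctss, the cathepsin known to cleave invariant chain in antigen-presenting cells, and March1, a ubiquitin ligase of class II, had no count in any class. Against Scgb3a1 wells 14 genes of the list were measured. Ctsc (20.1), Cd81 (29.9), Ifi30 (3.66) and Ctsh (3.58) were at least 2-fold higher, beside 19.7% of all measured genes. Between Scgb3a1 and other wells Ctsc (0.281) and Cd81 (0.102) were at least 2-fold lower in Scgb3a1 wells, beside 9.24% of all measured genes.

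Among the genes known to switch class II on, none that could be measured was past 2-fold. Of 15 transcription and interferon pathway genes 4 had at least 20 counts in Sftpc and other wells together. Over all measured genes 17.4% were at least 2-fold higher and 9.68% at least 2-fold lower, so 0 of 4 says little. The ratios were 1.98 (0.960 to 4.08) for Jak1, 1.35 (0.515 to 3.35) for Creb1, 0.962 (0.425 to 2.04) for Irf2 and 0.891 (0.440 to 1.71) for Irf1. Each interval reaches past 2-fold in at least 1 direction, so none is shown to be unchanged. The list median log2 was 0.19. The X box factors Rfx5, Rfxap and Rfxank had 3, 0 and 3 counts in Sftpc wells, too few to compare. The 12 interferon gamma targets summed to 10, 30 and 17 counts, or 41.5, 58.5 and 33.6 CPM, in Sftpc, Scgb3a1 and other wells, and none was measured in Sftpc wells against either class.

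Costimulation genes were mostly undetected. Cd80, Cd86, Cd40, Cd274, Pdcd1lg2 and Icosl had no count in any of the 3 classes. The adhesion gene Icam1 had 436, 64.3 and 226 CPM in Sftpc, Scgb3a1 and other wells. Its ratio was 6.78 to Scgb3a1 wells, where 19.7% of all measured genes were at least 2-fold higher, and 1.93 to other wells. Lgals9, a galectin, had 49.9, 68.2 and 5.94 CPM in Sftpc, Scgb3a1 and other wells. It was 11.5 times as high in Scgb3a1 wells as in other wells, from 35 and 3 counts, beside 8.13% of all measured genes at least 2-fold higher. Its 12 counts in Sftpc wells and 3 in other wells fell short of the minimum for a call. Tnfsf9 had 4 counts and Cd83 had 2 in Sftpc wells, and both had 0 in the other classes.

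MHC class I genes were present in all 3 classes and differed much less. H2-K1 had 461, 273 and 208 CPM and H2-D1 457, 240 and 228 CPM in Sftpc, Scgb3a1 and other wells. Of 15 class I and peptide loading genes 5 were measured in Sftpc and other wells. H2-K1 and H2-D1 were at least 2-fold higher (2.22 and 2.01), where 17.4% of all measured genes were. Neither was past 2-fold under TMM scaling. B2m, the shared light chain, had a ratio of 1.37. In Scgb3a1 over other wells 7 of the list were measured. H2-T23 (6.24), the peptide transporter Tap2 (2.81) and the immunoproteasome gene Psmb8 (2.04) were at least 2-fold higher, beside 8.13% of all measured genes. In Sftpc over Scgb3a1 wells H2-T23 (0.449) and Tap2 (0.107) were at least 2-fold lower, beside 13.2% of all measured genes. H2-K1 and H2-D1 were not past 2-fold there.

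Over all 227 kept cells the genes whose log level was most like the summed class II level, among 2297 genes counted in at least 20% of cells, were the AT2 genes Lamp3 (Pearson r 0.87), Sftpc (0.86), Napsa (0.85), Slc34a2 (0.85) and Lyz2 (0.83). These values restate the division between the classes. Within the 63 Sftpc wells, where the classes no longer carry the relation, the highest of 1890 genes were Sf3b1 (0.40), Selenop (0.38), Trim8 (0.35), Adgrf5 (0.35) and Tceal8 (0.34), all weak. Sftpc itself was at 0.09, and of class I H2-K1 was at -0.08 and B2m at -0.12. Scgb1a1 was at -0.46, the next to lowest of all 1890 genes. Cd74 with the summed 3 chains gave 0.61 in Sftpc wells, Cd74 with H2-Ab1 0.50, Cd74 with H2-Aa 0.47 and H2-Aa with H2-Ab1 0.43. The cells belong to 1 sample and differ in depth, and the well total itself gave -0.23 with the class II level in Sftpc wells, so these are descriptions of sparse counts.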

How the data were processed

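Single cells were sorted into wells and sequenced, with 2 wells of medium as controls. Per the labels' protocols, spike-in RNA was added and cDNA was primed from poly(A) with a molecular barcode. Whether barcodes were collapsed, and which annotation was used, is not given in the sources used here. STAR and the genome build mm10 are named in the submitters' processing notes. The authors deposited whole-number counts for each gene in each well, without normalization. Whether counting used strand is not stated there. If PCR copies were counted, the intervals are too narrow.

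Pooled CPM (class counts over class totals), exact Poisson and Clopper-Pearson intervals and exact conditional binomial intervals of ratios were computed in Python 3.11.15 (numpy 2.4.6, scipy 1.17.1, pandas 2.3.3, matplotlib 3.10.9). A gene was measured with at least 20 counts in both classes together and called at 2-fold, a rule of size and no test. A class at 0 was set to 3 counts for a bound. Thinning drew counts without replacement to the 10th percentile of kept totals. The ratio step was tested on simulated data. TMM factors came from edgeR 4.0.16 (R 4.3.3) and were used only as an alternative. Likeness used Pearson's r of log2(CPM/100 + 1). Of the symbols, 24241 matched GENCODE M21. Promoter windows came from RefSeq. Doublets were not called, given the few cells.

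The members and lists were chosen with earlier results of these data known. All 7 members are named, and of each list the genes past 2-fold and the most abundant. Further genes were named after their values were seen.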

Additional observations from a re-analysis of the deposited data

Results flagged for a closer look

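The wells removed for a low total were in no comparison, yet they held class II counts, where the 2 control wells held none. The 59 removed wells had 73 counts of Cd74 in 19 wells, 20 of H2-Aa, 19 of H2-Ab1 and 5 of H2-Eb1. Nearly all came from the 27 removed wells with at least 1% of their counts in Sftpc, which had 72, 20, 19 and 5 of these counts, while the other 32 removed wells had 1 count of Cd74 and no chain. In the 27 wells Cd74 was at 2269 CPM and H2-Aa at 630 CPM, with a median total of 1275 counts. The 2 controls held 275 counts together, so a count of 0 there allows up to 10909 CPM, and the controls do not bound these levels.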

How the results depend on the processing

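Over 18 settings, 74 of 88 values stayed within the interval of the reported value or, for a count, within 1.5 times, and 14 moved. The setting that leaves out wells at 1% of both class genes removed no well. Its values are counted among those that stayed, although they could not move. The log2 ratio of summed class II in Sftpc over other wells, 5.99 as reported, lay between 4.76 and 6.36. It was 4.76 in wells of at least 5000 counts and 5.26 in the first set of columns alone. In Scgb3a1 over other wells the value of -0.44 became -1.83 in the first set, 1.95 (0.15 to 3.80) in the third, which holds 5 Scgb3a1 wells, and -1.49 (-3.44 to -0.0040) with a class threshold of 5%. The count of 4 members at least 2-fold higher in Sftpc wells was 1 in wells of at least 5000 counts, 1 in the first set, 2 in the second set and 2 without the third, where fewer counts reach the minimum. With no minimum it was 6, and the count of 0 in Scgb3a1 wells was 1. The share of Sftpc wells with Cd74, 93.7%, was 100% in 8 wells of at least 5000 counts and in the first set, and 82.5% from 2 counts. The share with an alpha and a beta chain, 47.6%, was 25.0% in the deeper wells and 17.5% from 2 counts of each. In Sftpc over Scgb3a1 wells, 59.9% of called genes were higher on totals and 39.2% with TMM. Leaving out 20 wells with an immune marker gave 6.18, and leaving out 8 wells with Foxj1 gave 5.90, both chosen after seeing the data. No paired analysis was possible because no result comes from a test across samples and the replicate numbers of cells and controls only name wells. Sftpc wells were shallow, so an undetected chain is not an absent one.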
